A study of Bactrocera oleae with 8 samples.

Results

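The contigs described here had a higher signal in *Bactrocera oleae* larvae fed on green olives than in larvae fed on black olives and in larvae reared on artificial diet, by a similar margin against both. The members were selected on measured values of the same arrays. For each contig name on the array, the scanner's log2 ratio was averaged over all its spots on the 4 arrays of green over black olives and on the 4 arrays of green olives over artificial diet. A contig was kept when both means were at least 1, when the means differed by less than 1, and when its green olive signal was well above background in at least 0.5 of its spots over all 8 arrays. Of 20516 contig names, 151 met these conditions. The rule set aside 11 contigs by name, most of them described as proteases or peptidases, and 2 of these were among them, contig04849, described as a trypsin, and contig00850, described as a leucylaminopeptidase. This left 149 members of 144 distinct contigs. The ratios of the members against black olives and against artificial diet, and the difference between these ratios, are therefore a description, and no test of them is given.

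*B. oleae* is a tephritid fly whose larvae develop in olive fruit. Every sample was RNA from 20 pooled 2nd-instar larvae. Green olive (GO) larvae came from infested fruit picked in an orchard in September, black olive (BO) larvae from fruit picked there in January, and artificial diet (AD) larvae hatched in the laboratory from eggs of flies of the same orchard and grew on a medium of yeast, soy hydrolysate, sugar, olive oil and cellulose. GO RNA was labelled with Cy5 on all 8 arrays, BO RNA with Cy3 on 4 of them and AD RNA with Cy3 on the other 4. No array had the dyes exchanged, so green olive feeding and the Cy5 dye cannot be told apart, and season and rearing vary together with the food. In whole-larva RNA, fewer cells of a type and less RNA per cell cannot be told apart either.

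Unripe olives are rich in phenolic compounds such as oleuropein, and few insects feed on them. Larvae digest their food with enzymes of the gut, which has a chitin-containing peritrophic lining. Small heat shock proteins bind unfolding proteins and are induced by heat and other stress in many tissues of insects. A contig is an assembled stretch of transcript sequence, and a contig with no match to a known gene has no function assigned to it here.

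Between 60.6 and 64.1% of the spots were well above background in the GO channels, 56.9 to 67.2% in the BO channels and 65.5 to 66.9% in the AD channels. No spot was saturated. The methods describe 4 GO replicates that were hybridised on both sets of arrays. Over the 12688 contigs well above background in every GO channel, the deviations from the set mean correlated at 0.75 to 0.91 for 4 pairs of GO channels, BO array 2 with AD array 1, BO array 3 with AD array 2, BO array 1 with AD array 3 and BO array 4 with AD array 4. The other pairs gave -0.59 to -0.11. The comparisons with black olives and with artificial diet thus share their GO larvae, and a contig that was higher in both is not seen in independent pools. Signal is given below as log2 intensity, and ratios as log2 of GO over the other regime, after normalization. Errors are standard deviations over 4 arrays.

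**Figure D1:**
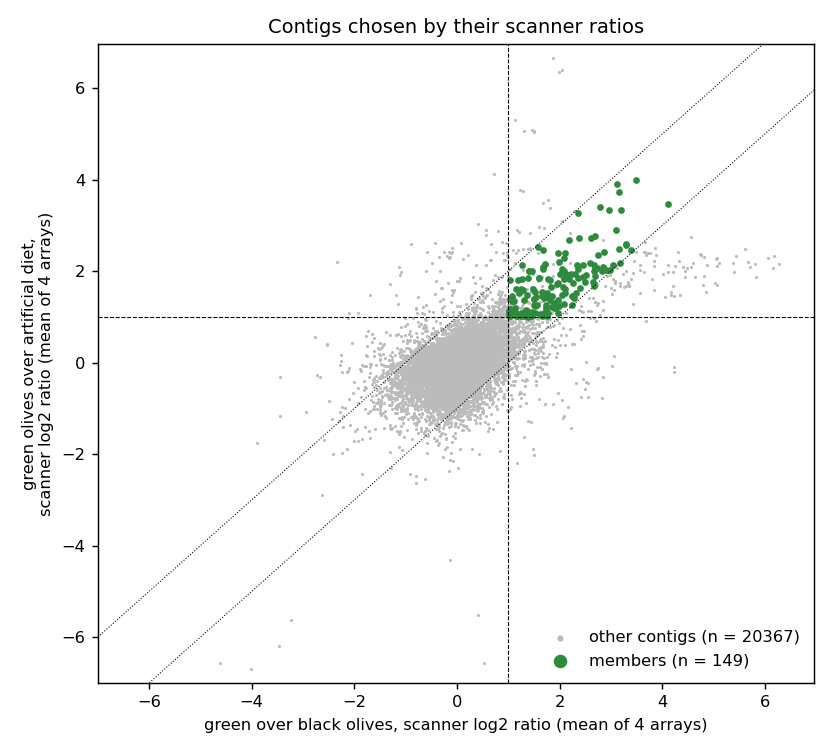
Mean scanner log2 ratio of each contig, green over black olives on the horizontal axis and green olives over artificial diet on the vertical axis (4 arrays each). Dashed lines mark a ratio of 1 and dotted lines a difference of 1. The 149 members (green) lie above both dashed lines and between the dotted ones, and all other contigs are grey, among them contigs in the same area that were too dim in Cy5 or were set aside by name.

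The scanner ratio of the members against black olives had a median of 1.84 and ran between 1.01 and 4.11. Against artificial diet the median was 1.64, between 1.004 and 3.997. The members nearest inside the black olive threshold were contig05378 at 1.01, contig06926 at 1.01 and contig01312 at 1.02, and rc_contig10757 at 0.999, contig13395 at 0.986 and rc_contig11837 at 0.968 fell just outside it. At the artificial diet threshold, contig05954 at 1.004, rc_contig12831 at 1.01 and rc_contig06837 at 1.02 were inside, and contig10807 at 0.998, contig07940 at 0.994 and contig02911 at 0.988 were outside. The difference between the ratios was 0.995 for contig06440, 0.990 for contig05196 and 0.979 for contig12338 inside the bound, and 1.002 for rc_contig07216, 1.01 for contig13534 and 1.02 for rc_contig12369 outside it. In 15 members, exactly 0.5 of the spots were well above background in Cy5. The nearest contig below that share was contig01448, described as glyceraldehyde 3 phosphate dehydrogenase 2, a glycolytic enzyme, at 0.488 of its spots.

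After normalization the ratios were smaller. The median over the members was 1.01 against black olives (0.07 to 3.27) and 0.83 against artificial diet (0.04 to 2.99), where the medians of all contigs were -0.00 and 0.01. The difference between black olives and artificial diet, BO minus AD, had a median of -0.11 and a range of -0.90 to 0.98, and it was below 0 in 100 members. By array, the member median was 0.80, 0.79, 1.08 and 0.998 on BO arrays 1 to 4, and 0.61, 0.67, 0.84 and 1.17 on AD arrays 1 to 4. BO arrays 1 to 3 and AD array 1 were in the first row of the slide and the other arrays in the second row, so the highest member median, on AD array 4, and the second lowest, on AD array 2, came from the same row. Of the members, 111 had a ratio above 0 on all 8 arrays, 24 on 7 arrays and 14 on 6 or fewer, where 9.16% of all contigs were above 0 on all 8. One member, rc_contig14017, had no usable spot on AD array 3, and its AD value rests on the other arrays.

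A contig was called when the Benjamini-Hochberg adjusted p of limma over all contigs was below 0.05 and the absolute log2 ratio was above 1. Of the 149 members, 59 were called higher against black olives, where 1.74% of all 20516 contigs were, and 35 against artificial diet, where 0.77% of all contigs were. Both calls held for 31 members, against 0.468% of all contigs, 28 were called against black olives only, 4 against artificial diet only, and 86 in neither. These contrasts chose the members, so nothing is read from the excess. The labels call the arrays replicates and give no separate origin for each pool, so the p-values measure the spread between these pools. The count against black olives was 37 without BO array 3 and 37 without BO array 4. The count against artificial diet was 22 without AD array 3 and 12 without AD array 4, 19 with the replicate number of the labels as a block and 18 with the slide row as a covariate. The fit does not model the GO pools that the sets share.

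The scanner and normalized ratios lay farther apart in dim members than in bright ones. In 59 members every spot was well above background in Cy5. Their median ratio against black olives was 1.70 from the scanner and 1.32 after normalization, and 27 of them were called in both comparisons. In the other 90 the medians were 2.05 and 0.78, and 4 were called in both. Against artificial diet the medians were 1.46 and 1.24 in the 59, and 1.75 and 0.63 in the 90. The smallest normalized ratios belonged to a fragment of contig00260, with 0.07 ± 0.27 against black olives and 0.04 ± 0.22 against artificial diet. This member was above 0 on 3 of the 4 arrays of each comparison. It has a single probe, and its scanner ratios were 1.48 and 1.61.

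**Figure D2:**
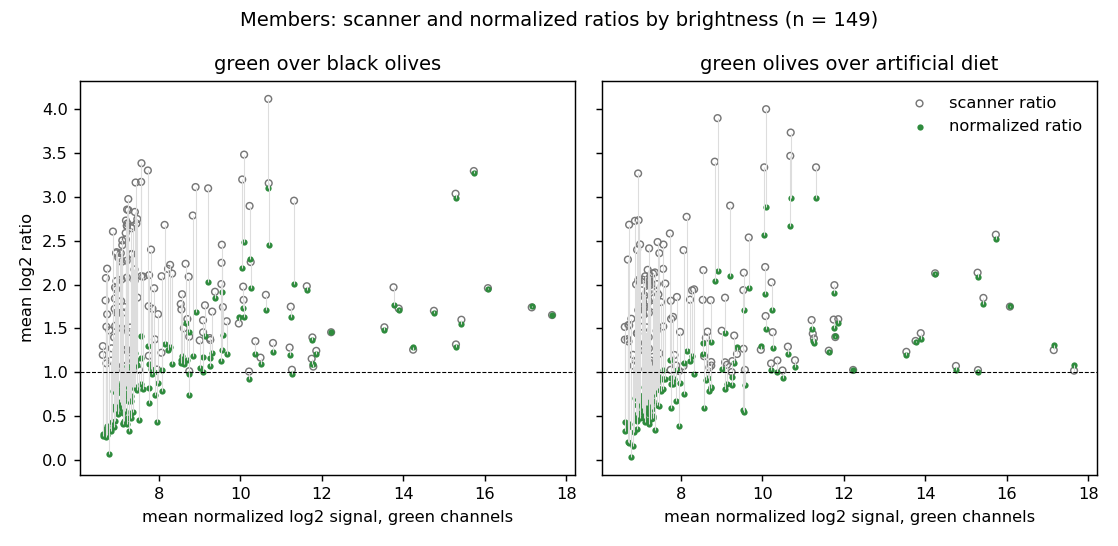
Mean log2 ratio of each of the 149 members against its mean log2 signal in the GO channels, by the scanner (open circles) and after normalization (green), with grey lines joining the values of a contig. Left, green over black olives. Right, green olives over artificial diet. The values nearly coincide in the brightest members and lie farthest apart in dim ones, where most normalized ratios are below the dashed line at 1. Some bright members differ too, such as contig04078 at a signal of 11.3, with 2.95 and 2.00 against black olives. Signal depends on the probes and is no transcript level.

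Where the other regime was dim, a ratio has only a lower bound. For 34 members no BO channel was well above background at any probe, and GO was at least 1.04-fold to at least 2.14-fold higher, with a median bound of 1.47. For 13 members the same held in all AD channels, with bounds of at least 1.198-fold to at least 1.58-fold and a median of 1.40. Both conditions were met by 10 members. On each array, the larger of the contig's own Cy3 signal and the lowest Cy3 signal well above background was taken. The bounds set the GO mean against the mean of these values, and they are open to dye bias. The other extreme was formed by 65 members well above background in all 16 channels.

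The GO channels were separate from the others in part of the members only. The lowest GO channel lay above the highest BO channel of the same arrays in 97 members, where 11.9% of all contigs showed this, and above the highest AD channel in 82 members, where 8.75% did. In 58 members all 8 GO channels lay above all 8 BO and AD channels, against 2.77% of all contigs. The same contrasts chose the members, and the shares are given as a description.

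The study's tables of annotated contigs gave a description for 27 members and listed 35 with no match. The other 87 were not in these tables. The tables hold contigs that had already been called on these arrays, apart from a panel of general cell functions, so a description is not independent of the ratios. Of the 27, all 8 GO channels were above all other channels in 15, against 2.77% of all contigs. The same contrasts chose the members, so this count is a description. The 15 included contigs described as heat shock protein 23, a peritrophin, an aquaporin, a regucalcin and a piggyBac transposase.

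**Figure D3:**
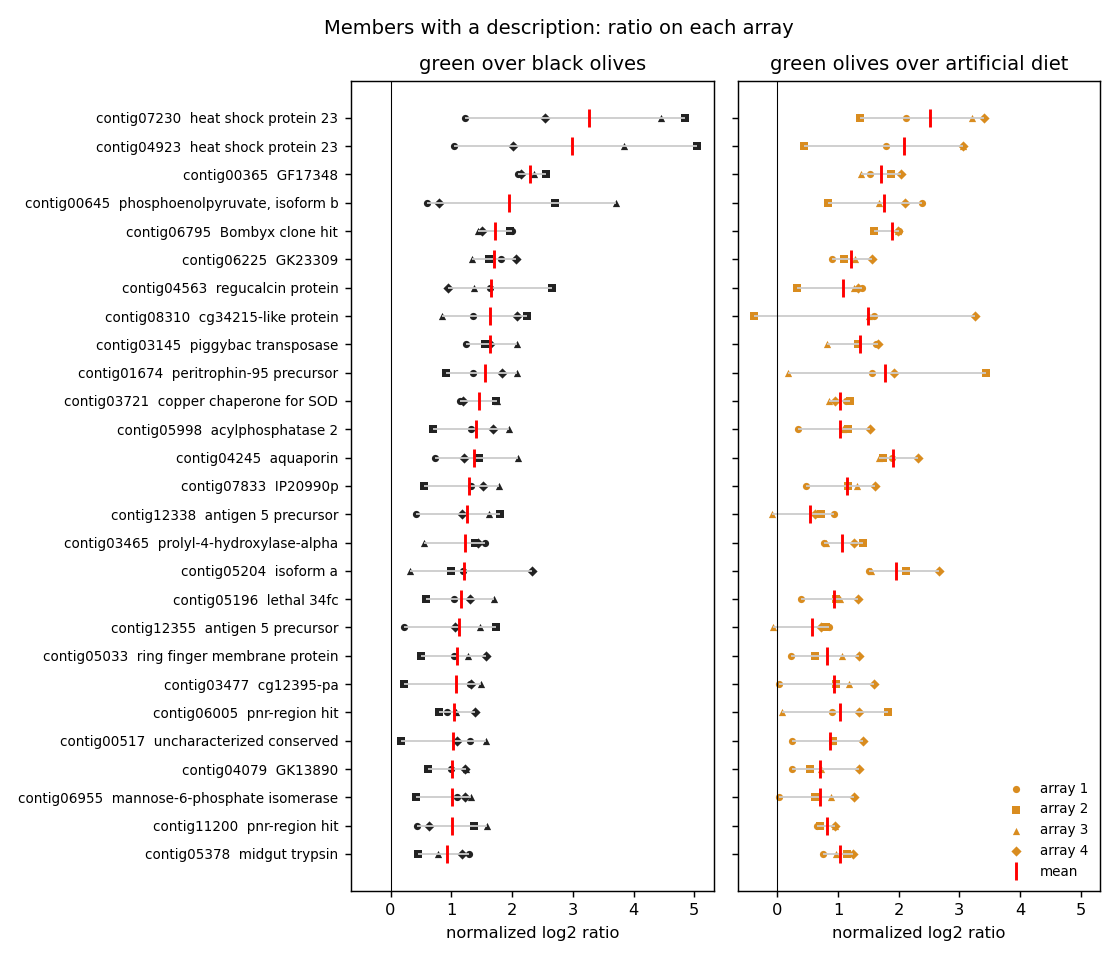
Normalized log2 ratio of the 27 members with a description on each array, green over black olives (left, black symbols) and green olives over artificial diet (right, orange symbols). Symbols mark arrays 1 to 4, red bars the mean of 4 arrays, and grey lines the range. The heat shock protein 23 contigs have the largest means against black olives and wide ranges, and contig00365 has a narrow range.

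Among stress proteins, the members were 2 contigs described as heat shock protein 23, a small heat shock protein. Contig07230 had a GO signal of 15.24, 16.32, 15.36 and 16.14 on BO arrays 1 to 4, against 14.01, 11.47, 10.90 and 13.60 in BO. On AD arrays 1 to 4 it had 16.22, 15.21, 15.27 and 16.07 in GO, against 14.11, 13.85, 12.07 and 12.67 in AD. Every GO pool was thus above every other pool, and the BO pools fell into a higher pair on arrays 1 and 4 and a lower pair on arrays 2 and 3. The mean ratio was 3.27 ± 1.69 against black olives and 2.52 ± 0.96 against artificial diet.

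Contig04923, which also stands in the study's panel of general cell functions, had ratios of 1.05, 5.05, 3.84 and 2.01 on BO arrays 1 to 4 and 1.80, 0.43, 3.06 and 3.05 on AD arrays 1 to 4. Its mean ratios were 2.99 ± 1.80 and 2.09 ± 1.25, and its GO channels did not overlap with the others. It was called higher against black olives and was not called against artificial diet. It was high in the same BO pools as contig07230. The other 29 contigs of the panel had median ratios of -0.06 against black olives and 0.02 against artificial diet, and none of them was called in either comparison.

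The tables describe 10 contigs as heat shock proteins. Against black olives 8 of them were called higher and none lower, with a median ratio of 2.67, and against artificial diet 3 were higher and none lower, with a median of 1.59. Of all contigs, 1.74% and 0.77% were called higher. Lists drawn from tables of contigs called on these arrays hold many called contigs by construction, here and in the protein families below, and their counts are no independent evidence. The 8 that are no members include contig05157, contig06606 and contig08991, all described as heat shock protein 23, with ratios of 2.36, 3.25 and 3.04 against black olives and 1.48, 1.69 and 1.77 against artificial diet. The difference between their scanner ratios was above the bound of 1. Contig05157 and contig06606 were called in both comparisons, and contig08991 against black olives only. The other contig described as heat shock protein 23, contig05783, had 1.54 ± 0.32 and 0.61 ± 0.74. It was likewise called against black olives only. Contig00907, described as heat shock protein 83, a cytosolic chaperone, had negative ratios of -0.63 ± 0.62 and -0.41 ± 0.44 and was called in neither comparison. Contigs of one small heat shock family may share sequence, and a probe of one may bind transcripts of another, so their values are uncertain as single genes.

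In the lining and the wall of the gut, contig01674, described as a precursor of peritrophin-95, a chitin-binding protein of the peritrophic matrix, had GO signals of 15.32 to 15.55 on the BO arrays, against 14.19, 14.56, 13.32 and 13.48 in BO pools 1 to 4. On the AD arrays it had 15.31 to 15.51 in GO, against 13.94, 11.93, 15.27 and 13.38 in AD pools 1 to 4. The GO pools differed little among themselves, while AD pool 3 came just below the lowest GO channel and AD pool 2 was far below it. The mean ratios were 1.55 ± 0.52 and 1.78 ± 1.34. The tables hold 6 peritrophin and cuticular protein contigs, of which 6 were called higher against black olives and 1, the member, against artificial diet, with median ratios of 1.59 and 0.32, where 1.74% and 0.77% of all contigs were called higher.

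Contig04245, whose best match is an aquaporin of the gall fly *Eurosta solidaginis*, belongs to the family of membrane channels for water. Its GO signal was 11.57, 11.78, 11.73 and 11.95 on the BO arrays, against 10.85, 10.32, 9.63 and 10.75 in BO, and 11.68, 11.73, 11.67 and 12.02 on the AD arrays, against 9.78, 9.996, 9.997 and 9.70 in AD. All GO channels were above all others, and the AD pools lay close together. The mean ratio was 1.37 ± 0.58 against black olives and 1.90 ± 0.29 against artificial diet.

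The rule set aside 11 contigs by name, most of them proteases or peptidases, and 2 of these met its other conditions. The number of digestive proteins among the members was thus set in part by this naming. Contig05378, described as a midgut trypsin, a serine protease that cuts dietary protein, was the member nearest the black olive threshold. Its ratios were 1.30, 0.45, 0.79 and 1.18 on BO arrays 1 to 4 and 0.75, 1.14, 0.96 and 1.25 on AD arrays 1 to 4, with means of 0.93 ± 0.39 and 1.03 ± 0.22. Its GO channels, 9.90 to 10.45, were all above the BO channels of 8.94 to 9.67 and the AD channels of 9.04 to 9.29. Contig05196, described as lethal 34fc and assigned to digestion in the study's table, was dimmer. No BO channel was well above background and GO was at least 2.06-fold higher there, and against artificial diet, where 2 of 4 channels were well above background, its ratio was 0.93 ± 0.39.

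Several enzymes of small-molecule metabolism were among the members. Contig00645, whose best match is an isoform of phosphoenolpyruvate carboxykinase, the enzyme that commits carbon to gluconeogenesis, had GO signals of 16.20, 16.30, 16.02 and 15.90 on the BO arrays, against 15.61, 13.60, 12.30 and 15.11 in BO. On the AD arrays it had 16.15, 15.91, 16.24 and 15.87 in GO, against 13.76, 15.08, 14.56 and 13.76 in AD. The GO pools were alike, and the width of the ratios, 1.95 ± 1.51 and 1.75 ± 0.68, came with the spread of the BO and AD pools. BO pools 1 and 4 were again the higher ones.

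Contig04563, described as regucalcin, a calcium-binding protein, had ratios of 1.64, 2.66, 1.37 and 0.94 on BO arrays 1 to 4 and 1.40, 0.32, 1.27 and 1.33 on AD arrays 1 to 4. AD array 2 was the lowest, and GO stayed above AD there. The mean ratios were 1.65 ± 0.73 and 1.08 ± 0.51. A further contig with this description, contig03343, is no member and had ratios of 0.36 and -0.76.

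Contig03721, described as the copper chaperone for superoxide dismutase, which loads copper into that antioxidant enzyme, was even across arrays. Its ratios were 1.14, 1.74, 1.76 and 1.19 on BO arrays 1 to 4 and 1.12, 1.198, 0.86 and 0.95 on AD arrays 1 to 4, with means of 1.46 ± 0.34 and 1.03 ± 0.16. The GO channels, 11.96 to 12.58, did not reach down to the BO channels of 10.62 to 10.93 or the AD channels of 11.06 to 11.33. Contig03465, described as a prolyl-4-hydroxylase alpha subunit, an enzyme that hydroxylates proline in collagens, had mean ratios of 1.23 ± 0.46 and 1.06 ± 0.32. Contig00438, with a like description, is no member and had ratios of 1.04 and 0.05.

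The other enzymes were dim. Contig05998, described as acylphosphatase 2, which hydrolyses acyl phosphates, was not well above background in any BO channel, so that GO was at least 2.14-fold higher, and its ratio against artificial diet was 1.03 ± 0.50. Contig06955, described as mannose-6-phosphate isomerase, which interconverts mannose 6-phosphate and fructose 6-phosphate, was likewise below that limit in all BO channels, with GO at least 1.64-fold higher, and its ratio against artificial diet was 0.70 ± 0.52. For both, 2 of the 4 AD channels were well above background.

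Among secreted proteins, contig12338 and contig12355 are both described as antigen 5 precursors, named after a wasp venom allergen of the same protein superfamily. Their ratios against black olives were 0.41, 1.80, 1.62 and 1.18, and 0.23, 1.74, 1.48 and 1.06 on arrays 1 to 4. Against artificial diet they were 0.94, 0.72, -0.09 and 0.62, and 0.85, 0.80, -0.07 and 0.72. The contigs moved together array by array, were near 0 on AD array 3 and may share sequence. The tables hold 5 contigs described as antigen 5 proteins, the others as antigen 5-related or an antigen 5 isoform. All 5 were called higher against black olives and none against artificial diet, with median ratios of 1.34 and 0.58, where 1.74% and 0.77% of all contigs were called higher.

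Among mobile elements, contig03145, described as a piggyBac transposase, the enzyme that cuts out and inserts DNA transposons of that family, had ratios of 1.25, 1.56, 2.08 and 1.63 on the BO arrays and 1.63, 1.32, 0.82 and 1.66 on the AD arrays. The means were 1.63 ± 0.34 and 1.36 ± 0.39, and all GO channels were above the others. The tables describe 5 contigs as transposable elements. Of these, 3 were called higher against black olives and 4 against artificial diet, where 1.74% and 0.77% of all contigs were. Contig02335 and contig09291, which are no members, had ratios of 1.26 and 1.43 against artificial diet and 0.34 and 0.45 against black olives. Contig07038, described as a Tc3 transposase and also no member, had 2.44 against black olives and 1.09 against artificial diet. It was called higher in both comparisons. Contig04585, a transposon polyprotein and no member, had 1.13 and 0.28.

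Of the members whose best match is a gene with no assigned function, contig00365, matched to GF17348 of *Drosophila ananassae*, had the most even ratios against black olives. They were 2.10, 2.56, 2.36 and 2.15 on BO arrays 1 to 4, and 1.53, 1.88, 1.37 and 2.04 on AD arrays 1 to 4. Its GO channels lay at 9.89 to 10.44, against 7.42 to 8.28 in BO and 8.33 to 8.83 in AD, so the regimes were more than 1 log2 unit apart in every pool. Contig06225, matched to GK23309 of *Drosophila willistoni*, had mean ratios of 1.71 ± 0.30 and 1.21 ± 0.28. Contig05204, listed only as an isoform a, had 1.21 ± 0.84 and 1.96 ± 0.55, and BO pool 3, at 10.04, was far above the other BO pools at 7.90 to 8.04.

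The remaining matches of this kind had wider spreads or lower signal. Contig08310, described as a CG34215-like protein, had GO signals of 8.52 on BO array 3 and 8.50 on AD array 2, and 9.74 to 11.33 in the other GO channels. Its ratios were 1.63 ± 0.65 against black olives and 1.49 ± 1.48 against artificial diet, with -0.38 on AD array 2. Contig07833, matched to IP20990p of *Drosophila melanogaster*, had 1.29 ± 0.53 and 1.15 ± 0.48. Contig00517, an uncharacterized conserved protein, contig03477, described as CG12395, and contig05033, a ring finger membrane protein, had ratios of 1.03 to 1.10 against black olives and 0.82 to 0.94 against artificial diet. Contig04079, matched to GK13890, had no BO channel well above background, so that GO was at least 1.68-fold higher, and its ratio against artificial diet was 0.71 ± 0.46.

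**Figure D4:**
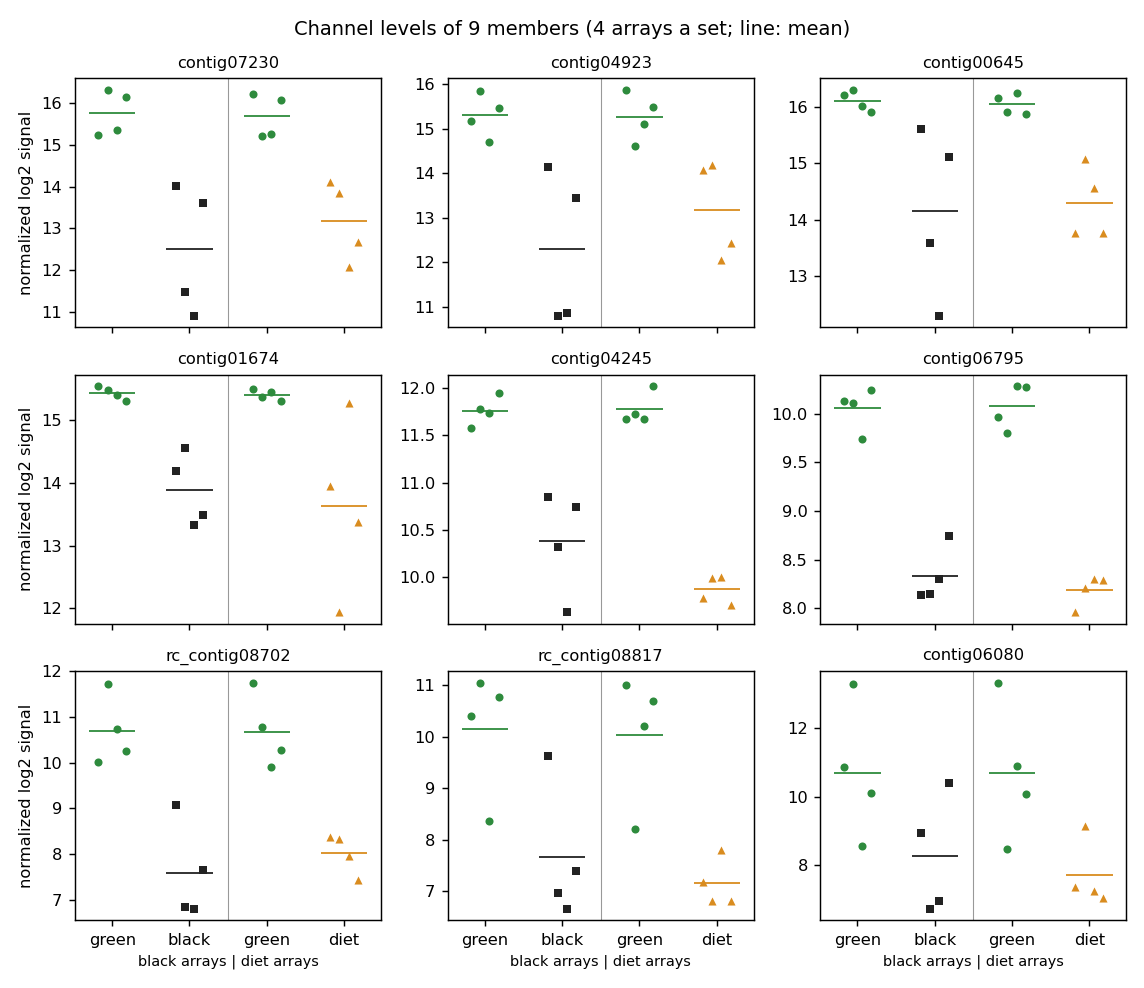
Normalized log2 signal of 9 members in every channel, green olives left of black olives on the 4 BO arrays and green olives left of artificial diet on the 4 AD arrays, with a line at each mean and a scale of its own for each contig. In contig07230, contig04923, contig00645, contig01674, contig04245, contig06795 and rc_contig08702 no GO channel falls among the others, and in rc_contig08817 and contig06080 one GO pool is low in both sets.

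The 8 members without a description that ranked highest by the smaller of their scanner ratios were rc_contig08817, rc_contig08702, contig06437, contig06080, rc_contig12323, contig04078, rc_contig13749 and rc_contig08479. After normalization, rc_contig08817, rc_contig08702 and rc_contig13749 were called higher in both comparisons, and contig04078 against artificial diet only. Contig06437, contig06080, rc_contig12323 and rc_contig08479 were called in neither. Names that start with rc stand for probes designed on the reverse strand. Rc_contig08702 had GO signals of 10.02, 11.72, 10.74 and 10.26 on the BO arrays, against 9.07, 6.85, 6.80 and 7.64 in BO, and 11.75, 10.79, 9.90 and 10.28 on the AD arrays, against 8.36, 8.33, 7.97 and 7.43 in AD. All GO channels were above all others, with mean ratios of 3.09 ± 1.70 and 2.66 ± 0.62. Rc_contig13749 was similar, with 2.03 ± 1.22 and 2.09 ± 0.65, but its values rest on 1 probe.

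In the other 6 the GO and BO channels overlapped. In contig06080 and rc_contig12323 the GO and AD channels overlapped too. In rc_contig08817, contig06437, contig04078 and rc_contig08479 every GO channel was above every AD channel of the same arrays. Contig06080 had GO signals of 10.87, 13.28, 8.55 and 10.10 on the BO arrays and 13.32, 8.47, 10.89 and 10.07 on the AD arrays. The BO signals were 8.94, 6.73, 6.95 and 10.39, and the AD signals 7.36, 9.15, 7.25 and 7.05. The GO values of the sets were nearly the same 4 numbers in another order, by the pairs of GO channels that correlated, and the highest GO pool was more than 4 log2 units above the lowest. Its mean ratios were 2.45 ± 2.91 and 2.99 ± 2.75. Rc_contig12323 had its highest and lowest GO signals in the same pools, 11.06 and 7.09 on the BO arrays and 11.25 and 7.20 on the AD arrays.

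Rc_contig08817 had a low GO signal of 8.37 on BO array 3 and 8.20 on AD array 2, where the other GO channels were at 10.21 to 11.05, and BO pool 1, at 9.64, was above this low pool. Its mean ratios were 2.49 ± 1.52 and 2.88 ± 1.21. Contig06437 had a GO signal of 9.92 on BO array 1, against 10.28 in BO. Contig04078 had 12.11 in GO there, against 12.16 in BO, and 6.07 in BO on array 2.

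Rc_contig08479 had 8.16 in GO on BO array 1, against 11.86 in BO, a ratio of -3.70, and ratios of 0.66 to 4.22 on the other BO arrays. BO pool 1 was the highest BO pool in 85 of the 149 members and AD pool 2 the highest AD pool in 90, while AD pool 4 was the lowest in 69. The rule used ratios to these same channels, and the counts were taken over the members only. Whether all contigs shared this order of the pools was not tested.

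The green olive pools differed among themselves in many members. Within a set, the GO channels spanned more than 1 log2 unit in 65 of the 149. Of the 112 members well above background in all GO channels, 48 (42.9%) spanned more than 1, where 5.19% of the 12688 contigs with such signal did. The median standard deviation was 0.37 in these 112 members and 0.12 in those contigs, and the members were dimmer, with a median GO signal of 8.68 against 9.41. The rule chose the members on ratios from these same GO channels, so the difference is a description. Neither the part of brightness in it nor that of the choice was tested. The largest standard deviation of a member, 2.87, was that of contig03447, a member without a description. It had GO signals of 7.14, 11.79, 6.60 and 11.98 on the BO arrays, against 7.51, 7.66, 6.86 and 8.09 in BO, and 11.77, 6.82, 7.02 and 11.90 on the AD arrays, against 7.79, 9.44, 7.51 and 7.59 in AD. The contig was thus high in the GO channels of BO arrays 2 and 4 and AD arrays 1 and 4 and no higher than in the other regimes in the remaining ones, and its mean ratios were 1.85 ± 2.50 and 1.29 ± 3.41.

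The smallest spread, 0.05, was that of contig13501, likewise without a description, with 11.55 to 11.67 in all GO channels, against 9.28 to 9.99 in BO and 10.21 to 10.49 in AD. Its mean ratios were 1.94 ± 0.29 and 1.24 ± 0.15. The GO channel of BO array 2 was the lowest of its set in 67 members and the highest in 40, and that of AD array 1 was the lowest in 73 and the highest in 39. Contig05998, contig07833 and contig05196 were among those lowest there, with 6.69, 6.81 and 6.92 on BO array 2 and 6.73, 6.86 and 6.86 on AD array 1, where contig06080, rc_contig08702 and rc_contig08817 were at their highest. The counts of highest and lowest GO channels were likewise taken over the members only.

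The array carries probes for both strands of many contigs with no known orientation, which allowed the strand of the signal to be looked at. Of the members, 94 (63.1%) have the other strand on the array, against 65% of all contig names. For 10 members, from 5 contigs, the other strand is a member too. Those were contig06005, contig06795, contig09350, contig11200 and contig13793.

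Contig06795, whose best match is a genomic clone of the silk moth *Bombyx mori*, had ratios of 2.00, 1.96, 1.44 and 1.505 on BO arrays 1 to 4 and 2.01, 1.59, 1.99 and 1.98 on AD arrays 1 to 4, and its reverse strand had mean ratios of 0.33 and 0.47. Contig06005 and contig11200 match clones of the region around *pannier*, a GATA factor gene, from other tephritids. Contig06005 had mean ratios of 1.05 ± 0.25 and 1.04 ± 0.74 and its reverse strand 1.71 ± 0.36 and 1.38 ± 1.16. Contig11200 had 1.01 ± 0.56 and 0.81 ± 0.16 and its reverse strand 1.75 ± 0.86 and 1.31 ± 0.34. The strands of contig06005 were low together on AD array 3, at 0.07 and 0.02, where AD pool 3 was high. Contig09350 had mean ratios of 0.79 and 0.75 and its reverse strand 1.29 and 1.004, and contig13793 had 1.32 and 1.24 and its reverse strand 1.63 and 1.30.

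The other strand of 84 members is no member. Its ratio had a median of 0.09 against black olives and 0.12 against artificial diet, where contigs with probes for both strands had medians of 0.00 and 0.00. It was above 0 in 64 and 73 of the 84, where 49.7 and 52.5% of all contigs were. In limma, 4 of the 84 were called higher against black olives and none lower, 4.76% against 1.74% of all contigs, and 2 against artificial diet and none lower, 2.38% against 0.77%. Of the contigs with probes for both strands, 1.35% and 0.78% were called higher. The count against artificial diet was 0 without AD array 2, AD array 3 or AD array 4, and 1 without AD array 1, BO array 3 or BO array 4. A block for the labels' replicate numbers, or a slide row covariate, also left 0. The strands of a contig were measured on the same arrays and these calls are no independent evidence.

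The called ones were contig08165, contig08817, contig13749 and rc_contig13422. Contig08165 stood apart in that its ratio exceeded that of the member on its reverse strand. None of its BO channels was well above background, GO was at least 5.84-fold higher than BO, and its ratio against artificial diet was 1.61 ± 0.91, against 0.45 ± 0.36 and 0.36 ± 0.41 in the member. Contig08817 had ratios of 1.12 ± 0.15 and 0.37 ± 0.17, lower than those of its reverse strand, and its GO channels differed by less than 0.5 log2 units where those of the reverse strand differed by more than 2. Contig13749, with 1 probe, had 1.16 ± 0.70 and 1.04 ± 0.42, and rc_contig13422, with 2 probes, had 1.17 ± 0.30 and 0.73 ± 0.45.

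**Figure D5:**
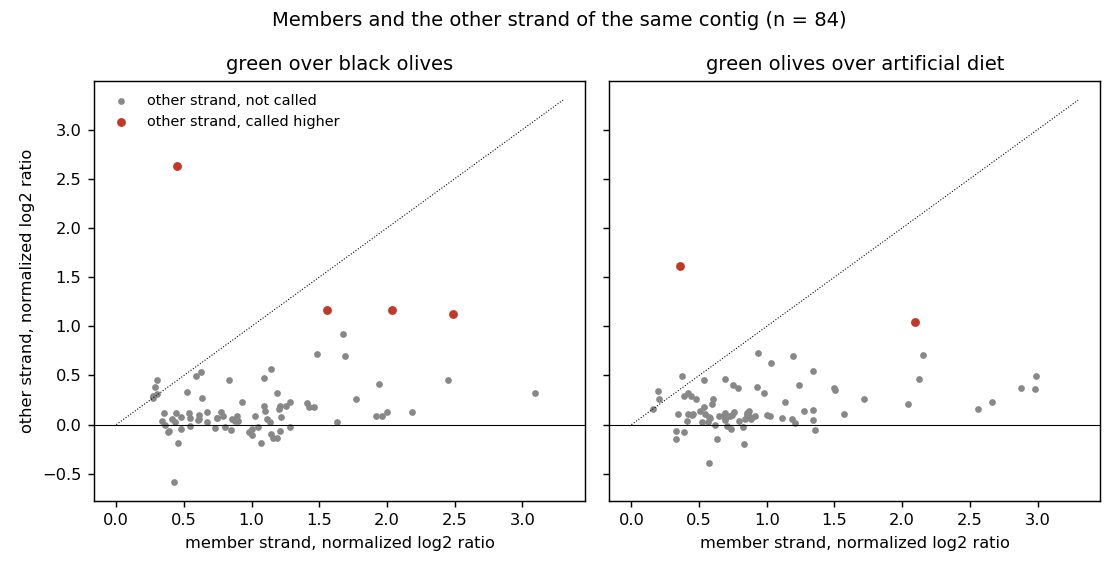
Normalized log2 ratio of the other strand (vertical axis) against that of the member (horizontal axis) for the 84 members whose other strand is on the array and no member, green over black olives on the left and green olives over artificial diet on the right. Red points are called higher, 4 on the left and 2 on the right, and the dotted line marks equal ratios. Most points lie near 0 on the vertical axis, with medians of 0.09 and 0.12.

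The probes of a member mostly ran the same way. A member had 1 to 7 probes (median 3). In 139 members every probe had mean ratios above 0 in both comparisons, where 14.7% of the other contigs did, and in 34 every probe reached 1 in both. In 74 no probe reached 1 in both after normalization. The rule chose the members on the mean over these same probes and left the other contigs out. These counts are therefore a description. The converse rule, with both scanner ratios at or below -1, a difference below 1 and the same brightness condition in Cy5, found 30 contigs, and 52 with the condition set in Cy3. With the condition in Cy3, the rule for higher contigs found 77.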

How the data were processed

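RNA of larvae of the 3 feeding regimes was hybridised on 8 Agilent 2-colour arrays of a single slide. The authors deposited the scanner output, as Feature Extraction 10.7.3.1 in the file headers (10.5 in the submitters' processing notes). It holds median spot and background intensity, a processed intensity, and the log10 ratio of Cy5 over Cy3, all without the authors' own normalization. The deposited series matrix holds the same log10 ratios, within 0.005. Its scale and direction are thus those of the scanner.

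The members were found from the log10 ratios as converted to log2. All other values came from the median intensities. As in the study's methods, normexp background correction (offset 50), loess within arrays and Aquantile between arrays were run in limma 3.58.1 (R 4.3.3, data.table package version 1.17.8). The 1319 control spots were left out after background correction, and 46 to 128 outlier spots an array were left out of 61600. Spots were averaged by probe and probes by contig. A single fit took in the 8 arrays and estimated a mean for either comparison, with 6 residual degrees of freedom, to which empirical Bayes added 2.21, and p-values were adjusted by Benjamini-Hochberg over 20516 contigs. The model treats the arrays as independent although the GO replicates were used on both sets. On simulated data with 200 changed among 20512 contigs, it recovered 190 against black olives and 191 against artificial diet, with 0 false calls in each. These counts hold for the simulation only. The rate of false or missed calls on the arrays themselves, where the sets share their GO larvae, was not tested.

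The members and lists were chosen with earlier results of these data known. Named were the members with a description, the 8 others with the highest smaller scanner ratio, those at the thresholds and with extreme spread among GO channels, and called other strands. Descriptions came from the study's tables of called contigs and were not used for set tests. The number of arrays in each comparison (4) limits the precision. No genome coordinates or sequences were used for the contigs. Alternatives changed the background correction, normalization, averaging, filter, model, rule and arrays.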

Additional observations from a re-analysis of the deposited data

Results flagged for a closer look

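In 7 of 102 groups of 4 arrays that were examined for named contigs and for the member median, 1 array lay farther from the rest than the limit of Dixon's gap test, and chance alone gives about 1 in 20 groups, or 5.1. On BO arrays, contig03465 (prolyl-4-hydroxylase) had a ratio of 0.56 on array 3, where the others had 1.38 to 1.55. Contig03477 had 0.22 on array 2, where the others had 1.30 to 1.49, and contig06440 had 0.27 on array 2, where the others had 0.83 to 0.95, with no BO channel well above background. Contig05954 had 1.49 on array 2, where the others had 1.03 to 1.07. On AD arrays, contig04563 (regucalcin) had 0.32 on array 2, where the others had 1.27 to 1.40, and contig06795 had 1.59 on array 2, where the others had 1.98 to 2.01. Contig12355 (antigen 5) had -0.0721 on array 3, where the others had 0.72 to 0.85.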

How the results depend on the processing

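Of 149 members, 59 passed both thresholds against black olives and 35 against artificial diet. These became 114 and 98 with the scanner's processed signals and 108 and 73 with the series value table, and 54 against artificial diet with a normexp offset of 16. With the slide row as a covariate the count against artificial diet was 18. The member medians were 1.88 and 1.65 with processed signals and 1.84 and 1.64 with the value table, and 1.27 (offset 16) and 1.24 (no background correction) against black olives. Other strands called numbered 10 and 15 with processed signals, 10 and 10 with the value table, and 0 against artificial diet with the slide row. The rule gave 87 contigs with a difference bound of 0.5, 59 with Cy5 well above background in all spots, 252 with no such condition and 88 with normalized ratios, of which 51 were members.

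With 1 array left out, the members called ranged from 37 to 60 against black olives and from 12 to 36 against artificial diet, the other strands called from 3 to 5 and 0 to 2, the contigs found by the rule from 103 to 183, and the medians from 0.91 to 1.01, 0.73 to 0.87 and, for BO minus AD, -0.21 to -0.04. Without BO array 2, 102 of the members met the rule, and without AD array 4, 97.

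Replicate numbers do not pair the arrays: GO channels with 1 number correlated at -0.59 to 0.88. With the replicate block, which used the numbers of the labels and not the pairs of GO channels that correlated, 19 members were called against artificial diet and 0 other strands, and 48 and 3 against black olives.

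Over 46 named members no ratio changed sign under any alternative that was run. The rule chose these members for high ratios on the same arrays, so their stable sign is no independent evidence. Of their values, 1620 stayed on the same side of the threshold, called or not, 135 lost a call and 71 gained one. Outside the members, rc_contig12369 had a ratio of 0.02 against black olives, which was -0.0191 with median centring and between -0.0839 and 0.13 with 1 BO array left out. The cause of these changes was not tested. Dim Cy3 channels limit the ratios of the members that have only bounds.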
